A study of Mus musculus with 8 samples.

Results

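The 4 control kidney libraries of this study, deposited as wildtype replicates 1 to 4, were examined on their own for which transcripts a mouse kidney holds in abundance and how far such levels vary between kidneys that share a label. They were chosen by that label alone and make up 4 of the 8 libraries of the series. The other 4 come from littermates of genotype Six2Cre+TFAP2Afl/flTFAP2Bfl/WT, in which the Six2 promoter drives Cre in nephron progenitors, and no value from them enters any result here. The control animals are given only as WT littermates. Their Cre and floxed alleles, age, sex and litter are not stated in the sources used here, and neither is whether each library came from a separate animal, so the spread between libraries may be in part technical.

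All libraries were made from total RNA of whole kidney. The kidney is built from nephrons: a glomerulus filters plasma through podocytes, the proximal tubule takes back glucose, phosphate, amino acids and filtered protein and secretes organic ions, the thick ascending limb and distal convoluted tubule take up salt, and the connecting tubule and collecting duct set final calcium, water, sodium and acid output. Most of the cortical mass is proximal tubule, which burns fatty acids and makes glucose and ammonia. Because the RNA is from whole tissue, fewer cells of a type and less RNA per cell cannot be told apart in any value below.

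Gene counts came to 14721847, 16629301, 15791516 and 15636709 in replicates 1 to 4, and 19860 to 20259 genes had at least 1 count in a library. Levels are given as CPM, the count of a gene divided by the sum over all gene rows of that library and multiplied by 1000000. A count of 3, the limit that a count of 0 allows, corresponds to 0.180 to 0.204 CPM, and it covers counting error only. Of 37583 gene rows, 17406 had counts in all 4 libraries, 14488 had none in any, and 10890 had a mean of at least 5 CPM. Those 10890 genes held 99.1% of all gene counts. No mitochondrially encoded gene was among the rows, so such transcripts were not analysed here.

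Replicate 1 stood apart from the other 3 libraries before any gene was singled out. Over the 10890 genes, Pearson's r of log2(CPM + 1) was 0.957, 0.966 and 0.967 between replicate 1 and replicates 2, 3 and 4, and 0.981 to 0.982 among the other 3 pairs; these are correlations across genes within pairs of libraries. Between 213 and 331 genes differed by more than 2-fold in pairs with replicate 1, against 121 to 141 in the other pairs. Replicate 1 also had the fewest gene counts, the largest share of reads outside annotated genes (14.4%, against 12.4% to 13.0%) and the largest share of reads aligned to several places (18.4%, against 15.8% to 16.5%). The part of these differences in the results below was not tested. No pair of libraries was a duplicate: the chi-square per gene between libraries was 23.0 or more in every pair.

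The most abundant transcript by far was Kap, the kidney androgen-regulated protein of the proximal tubule. Kap read 51739, 41285, 44231 and 37029 CPM in replicates 1 to 4, which was 4.36% ± 0.62 (SD, n = 4) of all gene counts. Replicate 1 was highest and replicate 4 lowest. Gpx3, the secreted glutathione peroxidase that the kidney makes for plasma, followed with 16160, 13126, 15042 and 16831 CPM (mean 15290 ± 1620, SD, n = 4). Kap and Gpx3 were the 2 genes above 10000 CPM, and 95 genes reached 1000 CPM. The 25 genes with the highest mean took 14.4% ± 0.35 of gene counts and the first 100 took 24.9% ± 0.12 (SD, n = 4), so the share of the leading genes hardly moved from library to library. Between 686 and 721 genes were enough to hold 50% of the counts of a library.

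After these came a proximal tubule set. Acsm2, a mitochondrial acyl-CoA synthetase, averaged 6180 ± 712 CPM (SD, n = 4). Cyp4b1, a cytochrome P450, averaged 5549 ± 770 CPM. Slc27a2, which takes up and activates very long fatty acids, averaged 5334 ± 596 CPM. Its 4 values ran from 6085 in replicate 1 to 4636 in replicate 4. Atp1b1, the beta subunit of the sodium pump that drives tubular reabsorption, averaged 3380 ± 287 CPM. Slc34a1, the main phosphate cotransporter of the brush border, read 3307, 4056, 4955 and 4657 CPM, lowest in replicate 1. Umod, the thick limb's secreted uromodulin, was the one member of the first 25 that marks a later segment, with 4229, 3422, 4049 and 4000 CPM. Further members of the 25 were Fth1 (ferritin heavy chain), Selenop (a selenium carrier), the ATP synthase subunits Atp5b and Atp5a1, Tmbim6, Lrp2 (megalin), Acy3, Napsa, Chpt1, Keg1, Cndp2, Mep1a, Ldhd, Atp11a and the nuclear RNA Malat1, with means from 2339 to 4341 CPM.

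**Figure D1:**
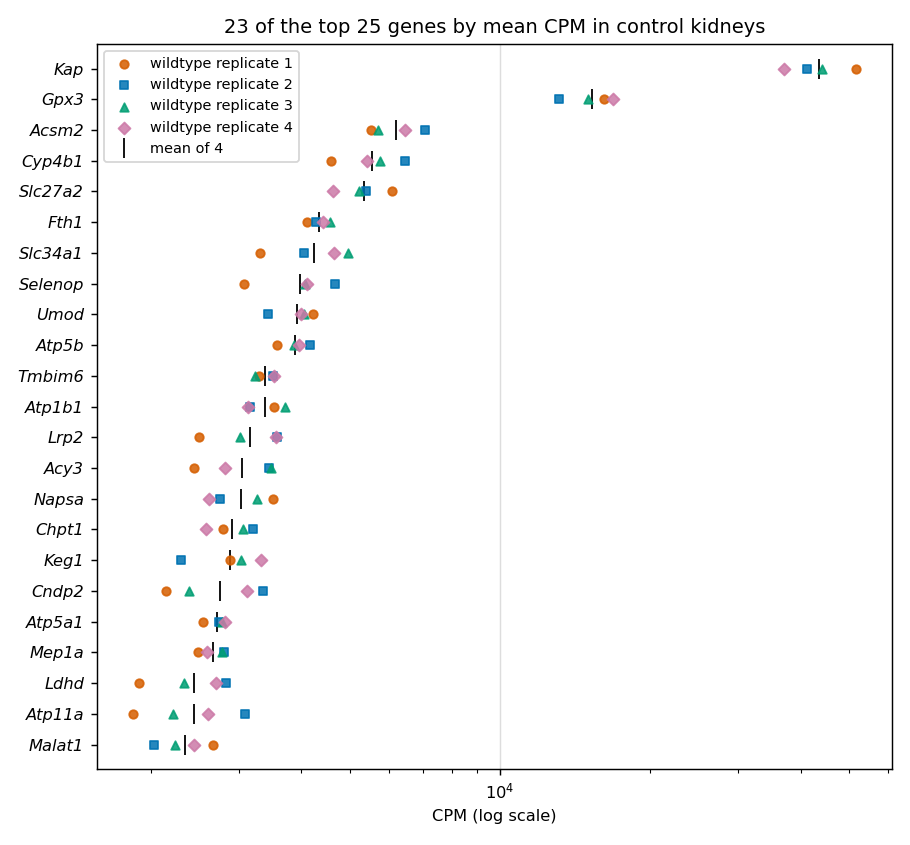
Level of 23 of the 25 most abundant genes in the 4 wildtype kidney libraries, in CPM on a log axis; points are libraries and bars mark the mean. Kap at a mean of 43571 CPM and Gpx3 at 15290 CPM sit above the other 21, whose means lie between 2339 and 6180 CPM.

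Shares of counts favour long transcripts, so levels of different genes were compared per kilobase of exon, as transcripts per 1000000 transcripts (TPM) from GENCODE M21 exon lengths. On this scale Kap, with 707 exonic bases, stood at 183340 TPM, or 18.3% of the total. Lrp2, with 16701 exonic bases, was rank 15 by CPM and rank 215 by TPM. Of the first 25 genes by CPM, 16 were also among the first 25 by TPM. Short transcripts took the vacated places: S100g, the vitamin D dependent calcium-binding protein of 480 exonic bases, was rank 242 by CPM and rank 18 by TPM, and Gpx1, Klk1, Cltrn and Miox were at ranks 8, 10, 12 and 16 by TPM.

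The 17 lists of nephron functions, with 223 genes measured and no gene in 2 lists, held 14.1% ± 0.26 of gene counts (SD, n = 4; 13.8%, 14.1%, 14.1% and 14.5% in replicates 1 to 4). The 8 proximal lists, with 132 genes, took 11.1% ± 0.42, and the 5 lists of the thick limb, distal tubule and collecting duct, with 58 genes, 1.58% ± 0.18. Fatty acid oxidation (2.28%) and detoxification and antioxidant enzymes (3.49%) were counted among the proximal lists, so the proximal share is not one of transport genes alone. The proximal share was lowest in replicate 1 (10.53%, against 11.03% to 11.47%), and the thick limb and distal share was highest there (1.77%, against 1.35% to 1.65%). These shares sum whatever genes a list holds, so their order reflects the lists as well as the tissue.

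The podocyte list, the genes of the glomerular filter, took 0.0422% ± 0.0092 of gene counts (SD, n = 4). Of its 9 members at 5 CPM or more, 8 were highest in replicate 4, where 23.3% of all 10890 genes were highest. Nphs1, nephrin of the slit diaphragm, stayed under the 5 CPM minimum with 2.45, 3.13, 1.77 and 7.61 CPM and was also highest in replicate 4. Npnt, a basement membrane protein, averaged 167 ± 46.5 CPM and Clic5, a chloride channel-like protein of podocyte foot processes, 103 ± 8.93 CPM (SD, n = 4).

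Several proximal uptake lists were lowest in replicate 1. The list of sodium, glucose and phosphate uptake took 0.719% of gene counts in replicate 1 and 0.934% to 0.973% in the other 3 libraries, and 12 of its 15 members had their lowest level there, against 31.5% of all genes. Slc5a2, the main glucose cotransporter SGLT2, read 172, 294, 241 and 308 CPM. The lactate cotransporter Slc5a8 had the largest spread of the list, with 182, 365, 223 and 326 CPM. In the list of organic ion and drug transporters 13 of 19 members were lowest in replicate 1. Its leading gene Slc22a6, the organic anion exchanger OAT1, read 1005, 1603, 1347 and 1511 CPM. Slco1a1, an organic anion transporter of the apical membrane, split the libraries otherwise: 880, 1752, 1381 and 913 CPM, so replicates 2 and 3 were above replicates 1 and 4. The catalogue of amino acid and peptide uptake took 0.710% ± 0.054 and was led by Cltrn (collectrin, which brings amino acid transporters to the surface) at 1931 ± 343 CPM.

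Protein endocytosis took 0.686% ± 0.067 of gene counts, led by Lrp2 at 3159 ± 512 CPM, with its partner receptor Cubn at 592 ± 84.1 CPM. The brush border list took 0.778% ± 0.085. Its first gene, the metalloprotease Mep1a, was among the steadier ones, with 2486, 2804, 2779 and 2589 CPM, while angiotensin-converting enzyme, Ace, read 313, 658, 442 and 519 CPM. Detoxification and antioxidant enzymes had the largest share of the 17 lists, 3.49% ± 0.15, of which Gpx3 was the largest single part. Fatty acid oxidation followed with 2.28% ± 0.13. Here Hadh and Cpt1a, enzymes of the mitochondrial pathway, were close to constant: Cpt1a read 556, 532, 567 and 542 CPM. Acsm1 varied most, with 207, 407, 194 and 429 CPM. Of the 23 members 2 had a CV below 0.05, against 9.61% of all genes, where CV is the SD over the mean. The median CV of the list was 0.115, against 0.114 for all genes. Gluconeogenesis and ammonia production took 1.12% ± 0.11 (all values SD, n = 4).

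Pck1, the cytosolic enzyme that commits carbon to glucose, varied most in the gluconeogenesis list. Its values were 3434, 2149, 1447 and 1964 CPM, highest in replicate 1 and lowest in replicate 3. The downstream enzyme Fbp1 stayed between 1349 and 1515 CPM, and G6pc, which releases free glucose, read 658, 750, 488 and 351 CPM. The 3 enzymes of the pathway therefore did not share an order of libraries.

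Downstream of the proximal tubule, thick ascending limb genes took 0.670% ± 0.067 of gene counts (SD, n = 4), and 9 of 12 members at 5 CPM or more were lowest in replicate 2, against 33.4% of all genes. Slc12a1, the cotransporter NKCC2 that loop diuretics block, read 1873, 1355, 1792 and 1599 CPM. The distal convoluted tubule list took 0.408% ± 0.035, and 7 of its 12 members were highest in replicate 3, against 25.04% of all genes. Slc12a3, the thiazide-sensitive cotransporter NCC, read 414, 499, 654 and 449 CPM. Pvalb, parvalbumin of the early distal convoluted tubule, was the most variable gene of all 17 lists after Ugt2b38: 2.51, 16.7, 27.5 and 0.831 CPM. Replicates 2 and 3 were above replicates 1 and 4 for Pvalb and, by a smaller margin, for Slc12a3, which the same segment expresses.

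The connecting tubule list had the widest relative range of the 17 shares: 0.360%, 0.166%, 0.247% and 0.258% of gene counts in replicates 1 to 4. Klk1, tissue kallikrein, read 2080, 779, 1258 and 1598 CPM, and S100g 877, 263, 396 and 466 CPM; both were highest in replicate 1 and lowest in replicate 2. The other calcium genes of the same cells varied less or in another order: Calb1, calbindin-D28k, read 508, 459, 665 and 349 CPM, and Trpv5, the apical calcium channel, 20.4, 14.6, 20.9 and 17.6 CPM. Principal cell genes took 0.110% ± 0.016 (SD, n = 4), with the water channel Aqp2 at 391, 280, 277 and 372 CPM and Aqp4 at 171, 73.6, 122 and 79.7 CPM.

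All 13 intercalated cell genes at 5 CPM or more had their highest level in replicate 1, where 33.3% of all 10890 genes were highest, and 12 of the 13 were lowest in replicate 2. These cells secrete acid or base through a proton pump and anion exchangers. Foxi1, the transcription factor that specifies them, read 50.3, 22.1, 39.5 and 30.2 CPM. The ammonia channel Rhcg read 147, 81.1, 104 and 87.0 CPM, and the proton pump subunit Atp6v1g3 92.7, 41.6, 53.1 and 48.8 CPM. Subunits that other tubule cells also use moved less: Atp6v0a4 stayed between 259 and 287 CPM. As a list the intercalated genes took 0.157%, 0.107%, 0.132% and 0.129% of gene counts, so the order of libraries was that of the connecting tubule list at its upper and lower end, and the first 2 libraries differed by 1.48-fold.

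**Figure D2:**
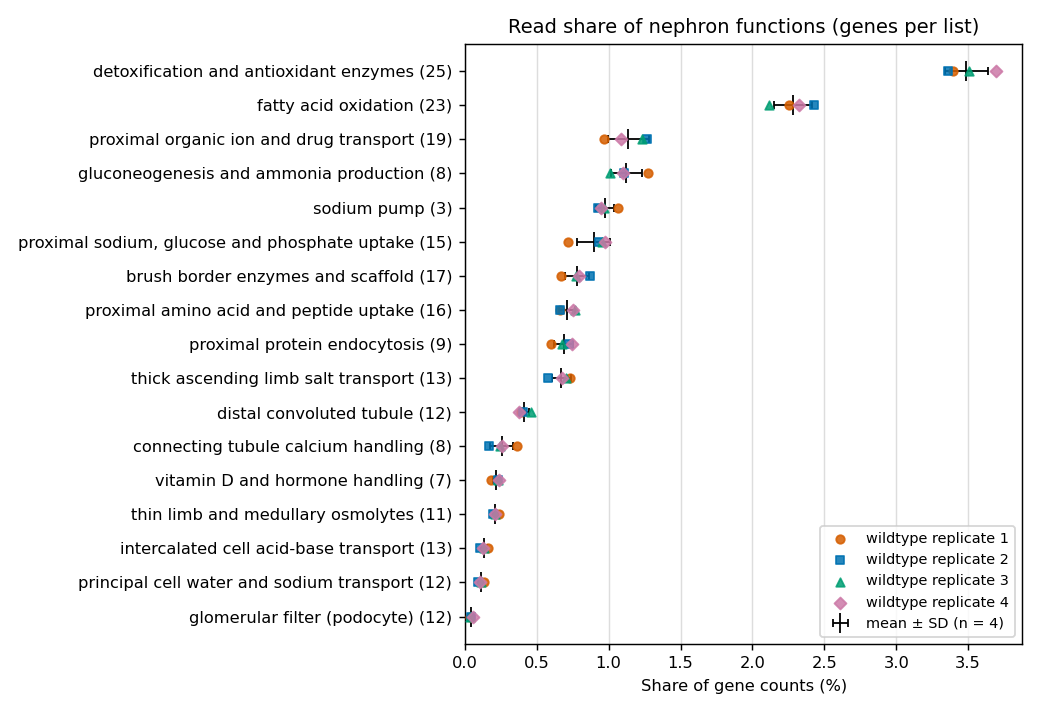
Percent of gene counts taken by each of the 17 nephron function lists in the 4 wildtype libraries, on a linear axis; points are libraries, and bars give the mean and SD (n = 4), with the number of genes per list in brackets. Detoxification enzymes at a mean of 3.49% lead and the podocyte list at 0.0422% is last, and the connecting tubule points spread from 0.166% to 0.360%.

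The spread of each gene was measured as its coefficient of variation (CV), the SD over the 4 libraries divided by the mean. Over the 10890 genes with a mean of 5 CPM or more the median CV was 0.114, and the 5th and 95th percentiles were 0.0386 and 0.318. Counting error alone would give a CV of 0.113 at 5 CPM, 0.0253 at 100 CPM and 0.00799 at 1000 CPM. The median CV fell from 0.170 at 5 to 10 CPM to 0.0980 at 100 to 300 CPM and was 0.108 at 1000 CPM or more. With counting error taken off, the median over all 10890 genes was 0.102. With 4 libraries a single CV is known poorly: its 95% confidence interval under normal error runs from 0.566 to 3.73 times the estimate. The minimum of 5 CPM was passed narrowly by Med29 (5.001 CPM, CV 0.0438), Ecm2 (5.004 CPM, CV 0.187) and ENSMUSG00000085062 (5.005 CPM, CV 0.204). It was missed narrowly by Lmntd2 (4.9997 CPM, CV 0.172), Irs4 (4.9996 CPM, CV 0.0993) and Nfkbie (4.9987 CPM, CV 0.0715). So few genes do not show how spread changes across the minimum.

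A CV above 0.5 was found for 170 genes, 1.56% of the 10890, and a CV below 0.05 for 1047 genes, 9.61%. Without replicate 1, and with the 5 CPM minimum applied again, the count above 0.5 fell to 107 genes, of which 78 were among the 170. With 3 libraries in place of 4 the count below 0.05 was 2188 without replicate 1, 1665 without replicate 2 and 1638 without replicate 3. Of the 210 nephron list genes at 5 CPM or more, 7 (3.33%) had a CV above 0.5 and 6 had a CV below 0.05, and their median CV was 0.156 against 0.114 for all genes. The 25 most abundant genes had a median CV of 0.115, none above 0.5 and 3 below 0.05.

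**Figure D3:**
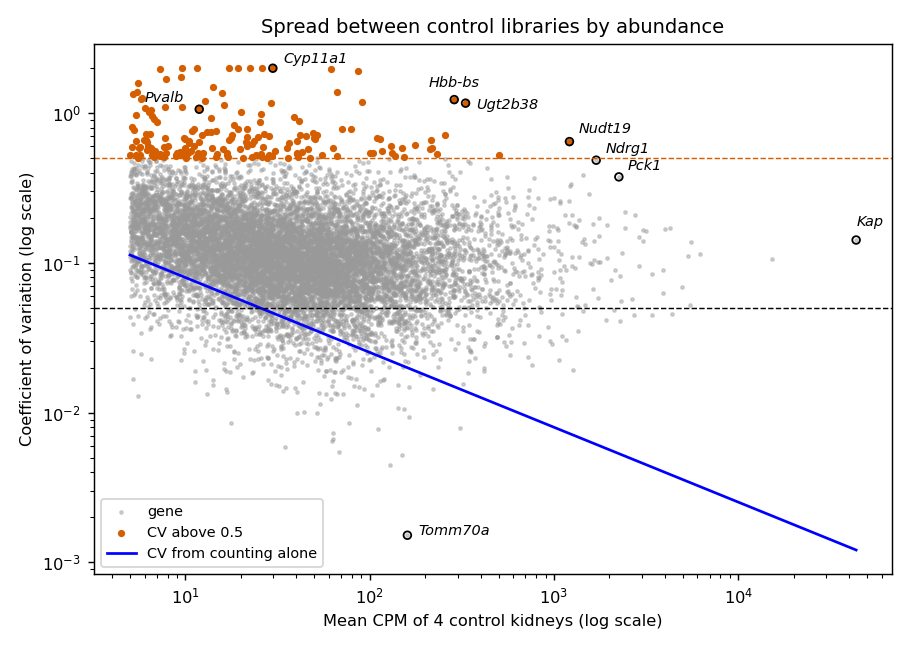
Coefficient of variation between the 4 wildtype libraries against mean level for 10890 genes, both on log axes; the sloping line is the CV that counting error alone would give, dashed lines mark 0.5 and 0.05, and genes above 0.5 are coloured. Most genes lie above the line, with a median CV of 0.114, and Cyp11a1 is among the points at the upper edge near a CV of 2.00, the largest that 4 values can give.

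The least variable genes had moderate levels, from 17.7 to 309 CPM (Ciao2b and Idh3g). Tomm70a, a receptor for protein import into mitochondria, read 160.3, 159.8, 160.3 and 160.1 CPM, a CV of 0.0015. Ccdc47, an endoplasmic reticulum protein, stayed between 127.8 and 129.1 CPM. Idh3g, a subunit of the isocitrate dehydrogenase of the citric acid cycle, stayed between 305 and 311 CPM. Others of the 20 genes with the lowest CV were Zfp91, Cd99l2, Fam83h, Grk2, Kmt5b, Scfd1, Mrps7, Ciao2b, Odr4, Riok3, Fam3a, Tmem115, Nars, Golph3, Dtx3 and Tsc1. The CVs of the 20 ran from 0.0015 to 0.0114. All 20 lay under the CV that counting error would give at their own level (0.0144 to 0.0600), so their order at this depth does not rank true stability. In all, 793 genes (7.28%) lay under their counting CV.

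Among abundant genes, where counting error is small, 13 of the 95 at 1000 CPM or more (13.7%) had a CV below 0.05. The share was 14.4% at 100 CPM or more and 9.61% over all 10890 genes. Ghr, the growth hormone receptor, was the steadiest at 1262, 1293, 1291 and 1242 CPM (CV 0.0192, against a counting CV of 0.00708). Cdh16, a cadherin of tubule epithelium, read 1109, 1058, 1086 and 1142 CPM (CV 0.0323). The lysosomal genes Lamp1, Lamp2 and Psap were also in this set, as were Phyh, Akr1a1, Ugt3a2, Tmbim6, Atp5a1, Fth1, Fbp1 and 4833439L19Rik. The 12 endothelial markers had a median CV of 0.0905, against 0.114 for all genes, and none had a CV above 0.5, which 1.56% of all genes had. Flt1, a VEGF receptor, was the steadiest of them at 49.8 to 52.8 CPM, and Kdr, another VEGF receptor, varied most, at 32.9 to 48.3 CPM (CV 0.156).

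At the other end of the abundant genes, Nudt19, a peroxisomal enzyme that hydrolyses coenzyme A, was the only gene above 1000 CPM with a CV over 0.5. Nudt19 read 817, 2358, 625 and 1051 CPM, with replicate 2 more than 2-fold above every other library. Ndrg1, a stress- and hypoxia-responsive gene, read 1571, 1374, 963 and 2867 CPM and was highest in replicate 4. Acsm3, a relative of Acsm2, read 843, 1780, 1061 and 1213 CPM. Timp3, an inhibitor of matrix proteases, read 911, 1928, 1588 and 1730 CPM, and Ass1, which makes argininosuccinate for arginine synthesis, 788, 886, 1237 and 1375 CPM. Nudt19, Acsm3 and Timp3 were highest in replicate 2, and Ndrg1 and Ass1 in replicate 4.

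At 100 CPM or more, 19 of 2039 genes (0.93%) had a CV above 0.5, Nudt19 included, against 1.56% of all 10890 genes. Mfsd4b5, a transporter of the major facilitator family, read 39.7, 490, 240 and 255 CPM, and Kcnk5, the potassium channel TASK-2 of the proximal tubule, 94.2, 336, 151 and 127 CPM; both were lowest in replicate 1 and highest in replicate 2. Snhg11, a noncoding RNA, read 218, 71.1, 77.1 and 234 CPM, high in replicates 1 and 4. ENSMUSG00000093077 and ENSMUSG00000045999, which have no symbol in the annotation used, were highest in replicate 1, at 217 and 421 CPM.

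Of the 170 genes with a CV above 0.5, 86 (50.6%) were highest in replicate 1, 43 in replicate 2, 20 in replicate 3 and 21 in replicate 4. Among the 25 with the highest CV, 18 were highest in replicate 1 and 8 belonged to the adrenal list. In 61 of the 170 (35.9%) the largest gap between neighbouring libraries set replicate 1 alone above the others, against 14.1% of all 10890 genes. Of these 61, 9 were adrenal, 4 erythroid and 6 adipose list genes, and 42 were in none of these lists.

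The adrenal list holds steroid synthesis and chromaffin cell genes, which adrenal cortex and medulla express and nephrons are not known for. Cyp11a1, which makes pregnenolone from cholesterol, read 119 CPM in replicate 1 and 0.0601, 0.0633 and 0.0640 CPM in replicates 2 to 4, where each value is a single count. Cyp21a1 read 104, 0.0601, 0.127 and 0 CPM, Cyp11b1 76.9, 0.0601, 0.0633 and 0 CPM, and Hsd3b1 244, 0.361, 0.443 and 0.448 CPM. Star, which carries cholesterol into mitochondria, read 334, 4.15, 4.50 and 3.97 CPM. On the medullary side the granins Chga (68.5 CPM), Chgb (89.5 CPM) and Scg2 (46.1 CPM) were in replicate 1 and at 0.241 CPM or less elsewhere. Scg2 is not a member of the list. The catecholamine enzymes Th, Dbh and Pnmt read 15.6, 11.5 and 8.83 CPM in replicate 1 and at most 0.0601 CPM in the others. Summed over 16 list genes the level was 1325, 107, 136 and 108 CPM. Of the 10 list genes at 5 CPM or more all were highest in replicate 1, 9 had a CV above 0.5 and the median CV was 1.99. Most of these 10 reached the mean of 5 CPM only through replicate 1. The count and the high CVs were therefore largely set by that minimum and are a description only. The remainder of replicates 2 to 4 was mostly Fdx1, at 90.7 to 112 CPM, which other mitochondria use too.

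Haemoglobin and fat genes were also high in replicate 1, but they were present in the other libraries. Hbb-bs, an adult beta globin, read 817, 115, 74.6 and 143 CPM, Hbb-bt 202, 24.4, 13.3 and 24.5 CPM, and Hba-a1 252, 27.3, 26.3 and 58.5 CPM. Alas2, the erythroid enzyme of haem synthesis, read 35.4, 5.83, 2.28 and 7.29 CPM. The summed erythroid level was 1307, 192, 117 and 233 CPM. For the adipose list it was 898, 307, 262 and 499 CPM, with Fabp4 at 398, 129, 127 and 218 CPM, the brown fat uncoupler Ucp1 at 104, 23.5, 28.1 and 51.8 CPM and Cfd, adipsin, at 222, 73.4, 47.3 and 114 CPM. Leaving out replicate 1, the median CV of the erythroid genes fell from 1.22 to 0.489 and that of the adipose genes from 0.557 to 0.354. The 5 CPM minimum was applied again to the libraries left. The adrenal list then kept fewer than 3 genes, and the adipose list lost Retn (13.0, 4.33, 2.22 and 6.20 CPM), so the adipose medians cover different members. Skeletal muscle markers summed to at most 2.58 CPM in any library. The part of adrenal, blood or fat RNA in the other values of replicate 1 was not tested.

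**Figure D4:**
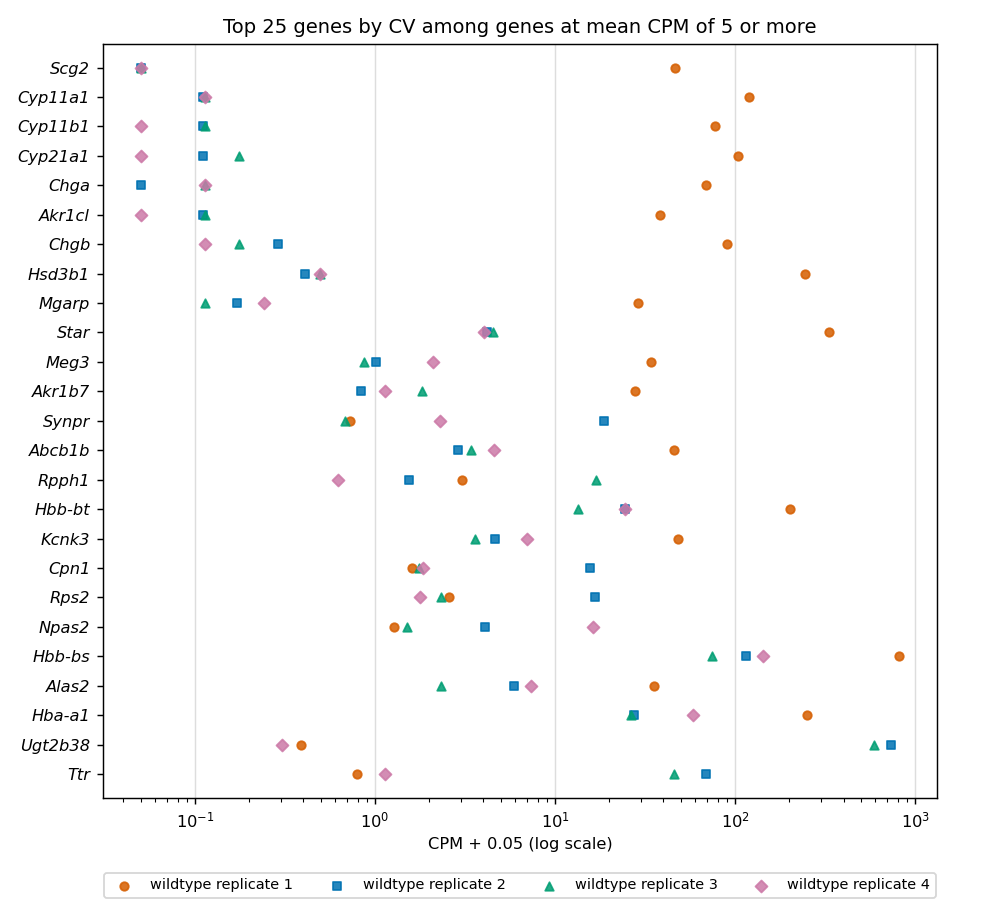
Level of the 25 genes with the highest CV in the 4 wildtype libraries, in CPM plus 0.05 on a log axis; colours mark the libraries. In 18 of the 25 genes the topmost point is replicate 1, and Ugt2b38 and Ttr split with replicates 2 and 3 high and replicates 1 and 4 low.

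The other genes of the highest 25 were set apart in several ways. Akr1cl, Mgarp, Meg3, Akr1b7, Abcb1b and Kcnk3 were high in replicate 1, at 38.0, 28.7, 34.0, 27.8, 45.6 and 48.3 CPM. Of these, Akr1b7 is a member of the adrenal list. Synpr (18.6 CPM), Cpn1 (15.6 CPM) and Rps2 (16.7 CPM) were high in replicate 2, and Rpph1, the RNA of ribonuclease P, in replicate 3 (16.7 CPM). Npas2 was high in replicate 4 and is described with the clock genes. Ugt2b38 and Ttr, transthyretin, divided the libraries into pairs. Ugt2b38, a glucuronosyltransferase, read 0.340, 732, 592 and 0.256 CPM, a step that began near the counting limit. Ttr read 0.747, 69.0, 45.9 and 1.09 CPM.

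Step-like genes, in which neighbouring libraries were at least 5-fold apart, numbered 42, 0.386% of the 10890. This count and the genes named from it were chosen after their values were seen. In 16 of the 42 replicate 1 alone was high, and in 9 the libraries split in pairs. Replicates 2 and 3 were high for Ugt2b38, Ttr, Pvalb, Gm4737 (0.815, 16.6, 20.8 and 0.256 CPM) and Vcp-rs (1.97, 39.9, 35.6 and 2.69 CPM). Replicates 1 and 4 were high for Ahcy, the hydrolase of S-adenosylhomocysteine, with 78.7, 7.70, 7.66 and 61.2 CPM. Replicates 2 and 4 were high for Nccrp1, with 0.408, 32.8, 0.253 and 31.4 CPM, and for Rps3a1 and Gm11814. The pair of replicates 2 and 3 thus held 5 of the 9 genes, the pair of 2 and 4 held 3, and the pair of 1 and 4 held 1.

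Some of these genes are copies of one another, and their levels are uncertain because reads that fit several places were set aside. Of the 30-base windows in the Gm4737 transcript, 93.4% also occur in transcripts of Ahcy, and Ahcy was low in the libraries where Gm4737 was high. The pseudogene Vcp-rs shares 89.9% of its windows with Vcp, which read 77.7, 51.6, 46.4 and 81.5 CPM and was thus lower where Vcp-rs was high. Hba-a2 shares 92.8% of its windows with Hba-a1 and was counted at 19.1 CPM in replicate 2 and at 0.127 CPM or less in the others. Ugt2b38 shares 44.7% of its windows with Ugt2b5, which read 5.98, 4.93, 7.22 and 8.51 CPM, and 23.9% with Ugt2b37, which read 153, 157, 240 and 284 CPM. Neither relative showed the step of Ugt2b38. By class, 7 of 24 processed pseudogenes (29.2%) had a CV above 0.5, against 145 of 10614 protein-coding genes (1.37%).

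Further steps set a single library low. Replicate 2 was low for Eddm3b (25.9, 0.722, 14.8 and 13.8 CPM), Ang (11.004, 0.481, 7.41 and 5.44 CPM) and Rnase4 (65.7, 7.82, 47.7 and 63.8 CPM), which are neighbours on chromosome 14 in GENCODE M21. Ang, angiogenin, and Rnase4 are secreted ribonucleases whose annotated spans overlap, so they may share reads. Ptprn2 was low in the same library, with 24.5, 0.120, 22.5 and 21.7 CPM. Replicate 3 was low for Gstp3, a glutathione transferase, with 40.1, 26.1, 0.443 and 31.9 CPM, and for Gfra1, a co-receptor for GDNF, with 38.6, 62.4, 4.18 and 56.2 CPM. Gstp1, which shares 0.642% of the windows of Gstp3, stayed between 35.9 and 46.9 CPM. Replicate 1 was low for BC018473, with 0.0679, 45.3, 28.7 and 40.2 CPM, and for Rpl34 and Fam163a.

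Clock genes had their extremes in replicate 4. The molecular clock is a feedback loop: the activators CLOCK, ARNTL and NPAS2 drive the Per and Cry repressors and output factors such as DBP through E-box elements, and REV-ERB proteins (Nr1d1, Nr1d2) repress Arntl through ROR elements, so activator and repressor transcripts peak at opposite times of day. Stretches of promoters from some of the clock genes with a match are shown first. They are RefSeq sequences on build GRCm38.p6, written 5′ to 3′ along the gene's strand, with capitals for an E-box (CACGTG) or a ROR element (TAGGTCA, or TGACCTA on the other strand). For Ciart, Per1 and Nfil3 the 250 bases before the transcription start are printed, and for Arntl 30 bases around its match, which begins 31 bases into the transcript.
Ciart, chr3:95882229-95882478, minus strand: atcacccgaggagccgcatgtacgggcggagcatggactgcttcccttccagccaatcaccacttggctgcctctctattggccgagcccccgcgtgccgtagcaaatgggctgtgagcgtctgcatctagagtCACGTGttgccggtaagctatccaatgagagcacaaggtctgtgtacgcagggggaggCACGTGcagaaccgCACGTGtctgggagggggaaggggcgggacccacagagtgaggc
Per1, chr11:69098699-69098948, plus strand: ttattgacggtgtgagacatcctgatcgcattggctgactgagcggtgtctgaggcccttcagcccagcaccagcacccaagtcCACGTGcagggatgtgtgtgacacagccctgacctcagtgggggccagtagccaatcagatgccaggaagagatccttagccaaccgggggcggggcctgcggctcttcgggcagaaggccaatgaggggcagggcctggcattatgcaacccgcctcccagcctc
Nfil3, chr13:52981040-52981289, minus strand: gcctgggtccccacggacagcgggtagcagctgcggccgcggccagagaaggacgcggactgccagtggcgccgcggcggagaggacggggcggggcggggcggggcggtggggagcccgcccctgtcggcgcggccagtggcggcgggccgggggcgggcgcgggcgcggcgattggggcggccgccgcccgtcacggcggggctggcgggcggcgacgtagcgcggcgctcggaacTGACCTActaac
Arntl, chr7:113207530-113207559, plus strand: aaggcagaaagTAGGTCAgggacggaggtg

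RefSeq windows of 250 bases before to 50 after a start were found for 15 of the clock genes, 20 windows in all. The E-box stood in 6 of the 20 windows, from the 5 genes Ciart, Per1, Cry1, Tef and Bhlhe41, in 7.15% of all 32851 windows and in 10.04% of the 11010 windows of genes at 5 CPM or more. In Ciart it stood 3 times, with first bases at -116, -58 and -44 from the start, and in Per1 at -166. The ROR element stood in 2 of the 20, of Arntl and Nfil3, in 2.61% of all windows and in 1.94% of those of genes at 5 CPM or more. The D-box (TTATGTAA, or TTACATAA on the other strand), which DBP, TEF and HLF bind, stood in 1 of the 20, of Per3, in 0.938% of all windows and in 0.527% of those of genes at 5 CPM or more. The windows of Dbp, Npas2, Nr1d1, Nr1d2, Clock, Hlf and Cry2 held none of these motifs. A match of letters is a description of the sequence and not of binding, and its part in the levels below was not tested.

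The activator side was high in replicate 4. Arntl, which encodes BMAL1, read 2.58, 6.49, 1.77 and 20.2 CPM, and Npas2, the partner that can stand in for CLOCK, 1.22, 4.03, 1.46 and 16.2 CPM. In both genes replicate 4 was well above the rest, and replicate 2 came next. Nfil3, a repressor of D-box genes that shares the ROR element with Arntl, read 8.63, 4.63, 6.65 and 13.2 CPM. Clock itself varied least of the 18 clock genes, with 42.5, 60.1, 51.2 and 67.2 CPM, again highest in replicate 4.

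The repressor and output side was low in replicate 4. Dbp read 104, 79.5, 133 and 33.8 CPM. Per2 read 69.8, 66.4, 59.1 and 19.4 CPM, Per1 54.5, 33.1, 32.7 and 16.2 CPM, and Per3 79.9, 60.4, 79.8 and 35.7 CPM. Ciart, a repressor of CLOCK and ARNTL with 3 E-boxes above, read 12.2, 8.60, 14.5 and 2.88 CPM. For each of these 5 genes replicate 4, a single value, was the lowest library, as it was for 17.6% of all 10890 genes. Tef, the most abundant of the list, read 506, 473, 527 and 291 CPM. Nr1d1 did not go with them: it read 51.7, 44.6, 66.6 and 90.2 CPM and was highest in replicate 4, while Nr1d2 read 165, 137, 178 and 93.3 CPM and was lowest there.

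In all, 12 of the 18 clock genes were lowest in replicate 4, where 17.6% of the 10890 genes were lowest, and 5 were highest there. The median CV of the list was 0.380, and 5 of 18 members had a CV above 0.5 (1.56% of all genes had one). Arntl and Npas2 reached the mean of 5 CPM only through replicate 4, so their high CVs were largely set by that minimum. Without replicate 4 the median was 0.218. Both genes left the list when the minimum was applied again, so the medians cover different members. The time of day at which the kidneys were taken is not stated in the sources used here.

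**Figure D5:**
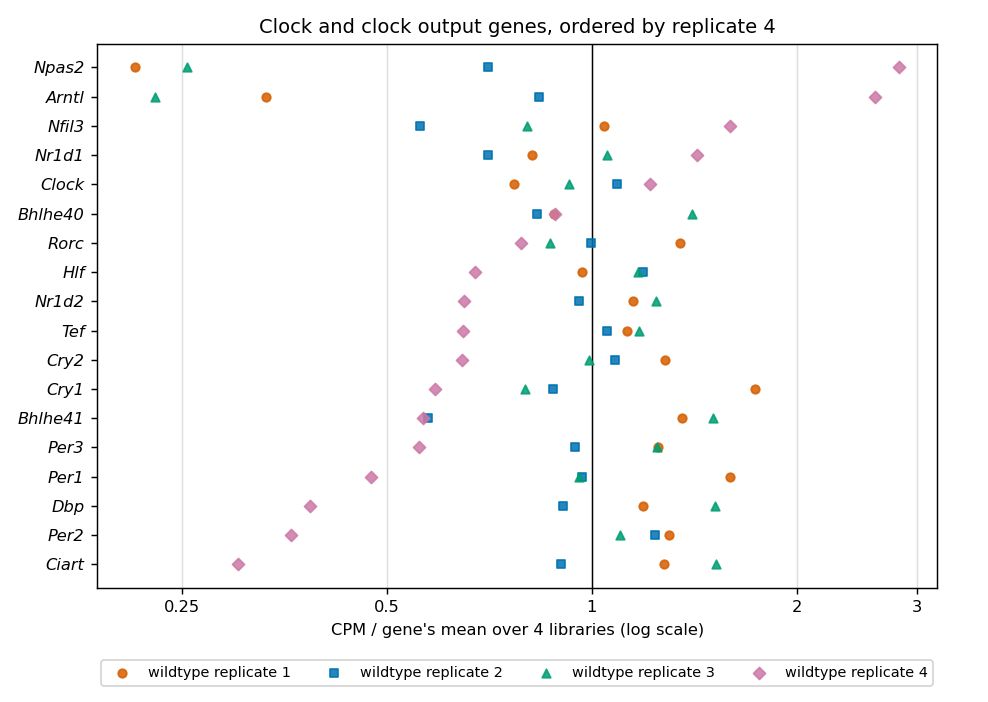
Level of the 18 clock and output genes in the 4 wildtype libraries divided by each gene's mean over the 4, on a log axis; colours mark the libraries. Replicate 4 is the top point for 5 genes, Npas2 and Arntl among them, and the bottom point for 12 genes, Ciart and Per2 among them.

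Genes of the fasting response, which PPARalpha drives when fatty acids reach the kidney, were mostly high in replicate 1: 7 of 8 list members at 5 CPM or more had their maximum there, against 33.3% of all genes. Angptl4, a secreted inhibitor of lipoprotein lipase, read 90.3, 34.3, 16.5 and 38.8 CPM, and Pdk4, which spares pyruvate, 63.7, 24.5, 21.7 and 53.7 CPM. Replicates 1 and 4 were above replicates 2 and 3 for Angptl4 and Pdk4, and also for 2 P450 genes of the detoxification list, Cyp4a10 (364, 99.9, 127 and 260 CPM) and Cyp4a14 (10.1, 2.77, 3.74 and 9.46 CPM), which are textbook PPARalpha targets. Lpl, lipoprotein lipase, was the exception in the list and was highest in replicate 4 (1428, 1351, 1339 and 1757 CPM). The level of adipose genes, given above, was also highest in replicates 1 and 4, and Fabp4 and Angptl4 are made in fat too; its part in the fasting genes was not tested.

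Immediate early genes, which cells switch on within minutes of a stimulus, were highest in replicate 1 for 6 of 7 members at 5 CPM or more, against 33.3% of all genes. Jun read 46.6, 19.003, 17.98 and 19.8 CPM and Nr4a1 16.0, 3.19, 3.17 and 4.03 CPM. The median CV of the list was 0.503, and 0.230 without replicate 1. Nr4a1, the most variable member, reached the mean of 5 CPM only through replicate 1. It left the list when the minimum was applied again, so the medians cover different members. Of 10 heat shock genes at 5 CPM or more, 5 were highest in replicate 1 (33.3% of all genes were) and 4 in replicate 2 (18.4% of all genes were). The inducible Hsp70 genes were highest in replicate 1, with Hspa1b at 41.4, 11.4, 19.9 and 13.2 CPM and Hspa1a at 11.9, 3.49, 5.95 and 3.45 CPM; 68.0% of the 30-base windows of Hspa1b also occur in Hspa1a, so the split between them is uncertain. Hsph1, a co-chaperone of Hsp70, was highest in replicate 2 (212, 274, 203 and 191 CPM), and the constitutive chaperone Hspa8 stayed between 58.5 and 67.2 CPM.

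Ribosomal protein and respiratory chain genes were, as lists, highest in replicate 1, where 33.3% of all genes were highest. For the cytosolic ribosomal proteins 42 of 52 members at 5 CPM or more were highest there, and the list took 0.538% of gene counts against 0.377% to 0.442%. For the nuclear-encoded respiratory chain subunits 56 of 77 were, with 2.71% of gene counts against 2.38% to 2.59%. Many ribosomal protein genes have near-identical pseudogenes, so their levels are uncertain under counting of uniquely placed reads. Replicate 1 also had the largest shares of reads without a gene and with several placements, as given above.

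Antigen presentation genes were mostly lowest in replicate 1 and highest in replicate 2. Cd74, the chaperone of MHC class II, read 97.6, 405, 284 and 238 CPM. H2-Ab1 read 26.4, 169, 69.8 and 53.1 CPM, H2-Aa 41.4, 124, 97.5 and 75.1 CPM, and H2-Eb1 44.9, 140, 116 and 94.7 CPM; these 3 genes encode class II chains that present antigen to T cells. The summed macrophage list, which includes these class II genes, was 360, 1038, 768 and 634 CPM. Of its 10 members at 5 CPM or more, 9 were lowest in replicate 1 (31.5% of all genes were), and the median CV was 0.307. The low level there was thus not confined to class II genes. Among members that moved less, C1qa, a complement subunit, stayed between 10.3 and 12.7 CPM. Csf1r, the growth factor receptor, read 85.9, 123, 124 and 87.2 CPM. Among all 14 H2 genes of chromosome 17 at 5 CPM or more, 12 were lowest in replicate 1 (31.5% of all genes were), 10 were highest in replicate 2 (18.4% of all genes were) and 6 had a CV above 0.5 (1.56% of all genes had one). H2-T22, a nonclassical class I gene, broke the pattern with 37.4, 51.3, 7.47 and 6.08 CPM, high in replicates 1 and 2. H2 genes are near-identical to one another and differ between strains, so single members are uncertain; the strain of the mice is not stated in the sources used here.

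Igkc, the kappa light chain, read 75.9, 134, 40.8 and 165 CPM and Jchain, which joins secreted antibody, 52.8, 98.7, 24.5 and 90.2 CPM, so replicates 2 and 4 were high for both. Ighm, the heavy chain of IgM, had another order, with 7.81, 7.70, 22.2 and 39.8 CPM. The interferon-inducible GTPase Iigp1 was lowest in replicate 1 and highest in replicate 3 (6.32, 22.4, 38.4 and 19.7 CPM), whereas the antiviral Rsad2 stayed between 20.7 and 22.3 CPM. Of 10 fibroblast and matrix genes at 5 CPM or more, 6 were highest in replicate 4, against 23.3% of all genes, 2 in replicate 1 and 2 in replicate 3. Col1a1 read 11.9, 24.3, 20.9 and 48.7 CPM and Col3a1 29.0, 50.4, 39.2 and 88.0 CPM, while Dcn, decorin, was nearly level at 75.8, 67.2, 62.8 and 76.6 CPM. Ren1, renin of the juxtaglomerular cells, read 38.6, 77.2, 25.1 and 30.8 CPM, highest in replicate 2. Of the injury genes, Krt19 read 9.65, 2.71, 5.26 and 13.0 CPM, and Havcr1, KIM-1 of damaged proximal tubule, read 4.69, 2.89, 5.57 and 3.65 CPM.

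Tfap2a and Tfap2b, the transcription factor genes that carry floxed alleles in the other kidneys (only 1 allele for Tfap2b), were measured here at their control level. Tfap2b, an AP-2 factor of the distal nephron, read 100.2, 49.8, 74.7 and 85.4 CPM (77.5 ± 21.2, SD, n = 4). Tfap2a read 4.08, 4.51, 5.32 and 2.75 CPM (4.16 ± 1.07, SD, n = 4) and fell short of the 5 CPM minimum. The Y-linked genes Ddx3y and Eif2s3y were read in all 4 libraries, at 73.0 to 92.5 and 82.3 to 106 CPM, and Xist, the RNA that coats an inactive X chromosome, at 0.570 to 0.815 CPM.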

How the data were processed

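The authors deposited 1 table of read counts per library, with whole-number counts per Ensembl gene and rows for reads without a gene. Per the submitters' processing notes STAR, HTSeq and edgeR and the build mm9 were used; no versions are named, and the deposited names call the counting unstranded although the kit named in the labels' protocols is directional, so overlapping genes on opposite strands cannot be told apart. Rows without a gene stayed out of library sizes: of all rows, reads outside genes took 12.4% to 14.4%, ambiguous reads 2.18% to 2.29% and reads with several placements 15.8% to 18.4%.

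Counts were divided by the sum of gene rows to give CPM. Symbols and exon lengths came from GENCODE M21 (build GRCm38) by Ensembl ID, matching 32860 of 37583 genes with 99.7% of counts, and gave TPM. The CV is the SD (n - 1) over the mean, for genes with a mean of at least 5 CPM. The counting CV is what Poisson error of the counts would give. No test between groups was made, and no p-value is given. The CV computation was tested on simulated data. Python 3.11.15, pandas 2.3.3, scipy 1.17.1, edgeR 4.0.16 and DESeq2 1.42.0 were used, the last 2 for scaling factors (TMM and size factors) and dispersion only.

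Named genes are the 25 with the highest mean CPM, the 25 with the highest and 20 with the lowest CV, the 10 with the highest CV at 100 CPM or more, and per list the 3 most abundant and the most variable member, with Tfap2a and Tfap2b. Other genes named, including further list members, were chosen after their values were seen. The lists and the choice of libraries were made with earlier results of these data known. Alternatives changed the scaling, the CPM minimum, the counting part, the denominator and the library left out. Some genes that this rule names are not reported here.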

Additional observations from a re-analysis of the deposited data

Results flagged for a closer look

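A library was set apart where its gap to the nearest other library took up more of the whole range over the 4 libraries than Dixon's 95% critical value allows; chance flags about 1 in 20 groups, and 578 of the 10890 genes (5.31%) passed, a share near that, 170 of them with replicate 1 high. Of 39 list sums 5 passed. Many genes named below were chosen for a high CV or after their values were seen, so their passing is a description and no support for a library standing apart.

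Replicate 1 was set apart high for the adrenal list (1325 CPM summed) and its genes Star (334 CPM), Hsd3b1 (244 CPM), Cyp11a1 (119 CPM), Cyp21a1 (104 CPM), Chgb (89.5 CPM), Cyp11b1 (76.9 CPM), Chga (68.5 CPM), Akr1b7 (27.8 CPM), Th (15.6 CPM), Dbh (11.5 CPM) and Pnmt (8.83 CPM). Genes outside that list with the same pattern were Kcnk3 (48.3 CPM), Scg2 (46.1 CPM), Abcb1b (45.6 CPM), Akr1cl (38.0 CPM), Meg3 (34.0 CPM) and Mgarp (28.7 CPM). The erythroid list was high in the same library (1307 CPM summed), with Hbb-bs (817 CPM), Hba-a1 (252 CPM), Hbb-bt (202 CPM) and Alas2 (35.4 CPM). So were the immediate early genes Jun (46.6 CPM) and Nr4a1 (16.0 CPM) and the vitamin D receptor Vdr (415 CPM).

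Low in replicate 1 were the summed lists of proximal sodium, glucose and phosphate uptake (7193 CPM) and of vitamin D and hormone handling (1816 CPM). Ccdc47 (129.1 CPM, high) and Zfp91 (148.7 CPM, low) were set apart in replicate 1 by gaps that lie within counting error.

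In replicate 2 the tubular injury list was low (804 CPM summed) and so was Ptprn2 (0.120 CPM), while Hba-a2 (19.1 CPM), Synpr (18.6 CPM), Rps2 (16.7 CPM), Mcm6 (15.9 CPM) and Cpn1 (15.6 CPM) were high. In replicate 3 Lamp1 (1424 CPM) and Rpph1 (16.7 CPM) were high.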

How the results depend on the processing

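TMM scaling (165 genes with a CV above 0.5), DESeq2 size factors and leaving Kap out of the denominator (176) kept the counts of variable and stable genes within 1.5 times of those reported. The count above 0.5 was 459 with a minimum of 1 CPM and 7632 with none, where counting error sets most CVs, and 107 to 207 with 1 library left out. The count below 0.05 was 2116 with the counting part taken off and 1460 to 2188 with 1 library left out. Lists with a median CV over 2 times that of all genes numbered 13 of 37, 6 with no minimum and 10 to 15 with 1 library left out. The median CV was 0.0934 to 0.117 with 1 library left out. The nephron lists took 14.6% per exon length, 9.58% of all rows and 14.0% to 14.2% with 1 library left out, and the 25 leading genes 29.3%, 9.75% and 14.2% to 14.5%. A gap of 3-fold or 10-fold, added after seeing the data, gave 63 or 29 step-like genes. Removing mitochondrially encoded genes could not be run, since no row held one. No paired analysis was possible because 1 group was described and no test was made. Below about 5 CPM counting error limits what a CV shows.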

Other observations

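In the cholesterol synthesis list, Sqle stayed between 107 and 122 CPM and Fdft1 between 15.6 and 17.2 CPM, and none of the 13 members at 5 CPM or more had a CV above 0.5. Of the vitamin D genes, Cyp24a1, which breaks the hormone down, read 44.0, 39.1, 24.4 and 10.4 CPM, while its receptor Vdr stayed between 366 and 415 CPM and Cyp27b1, the activating enzyme, between 1.14 and 2.38 CPM.

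Urothelial genes of the renal pelvis were lowest in replicate 2: Upk1b read 8.02, 2.53, 7.41 and 6.91 CPM and Psca 12.4, 4.57, 7.98 and 12.7 CPM. Mcm6, a subunit of the replicative helicase, read 1.83, 15.9, 3.42 and 4.22 CPM and was high in replicate 2, whereas its partner Mcm2 stayed between 8.63 and 13.7 CPM.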
